A study of Mus musculus with 10 samples.

Results

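The integrin and laminin genes were followed through a reprogramming time course of mouse embryonic fibroblasts (MEFs). Members were chosen by gene symbol alone: every symbol made of Itga or Itgb with a number or letter, or of Lama, Lamb or Lamc with a number. The rule found 37 genes among the 48476 of the deposited count table, namely 26 integrin subunits (18 alpha and 8 beta) and 11 laminin chains, and 36 of the 37 are described and counted here. MEFs from E13.5 embryos of the strain CBA/CaJ X C57BL/6J carried the factors Oct4, Sox2 and Klf4 (OKS), brought in with retroviruses, and were grown in iCD1 medium. The OKS+DR arm also received the red fluorescent protein DsRed and served as the control, and the OKS+FoxO6 arm received the forkhead factor FoxO6 in its place. Each arm gave a single RNA-seq library on each of days 0, 1, 3, 5 and 7, so all 10 libraries carried OKS and a difference on a single day has no replicate check. Tests over the 5 days describe these 2 time courses, whose days may come from 1 infected culture each, and not independent infections.

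Integrins are receptors of the cell surface made of an alpha and a beta subunit, and the pair decides which matrix protein is bound. Laminins are secreted trimers of an alpha, a beta and a gamma chain that build the basement membrane, the sheet on which epithelia rest. Fibroblasts mainly use integrins for fibronectin and collagen, whereas epithelia anchor to laminin through Itga3, Itga6 and Itgb4, and reprogramming turns mesenchymal cells into epithelial colonies at an early stage.

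The libraries held 1208379 to 2225750 expected counts. Foxo6 was at 0.61 to 2.29 TPM (a level scaled to transcript length and library size) in OKS+DR and at 762 to 1356 TPM in OKS+FoxO6, day 0 included, so the arms already differed in the transgene at the first time point. The summed TPM of 7 fibroblast markers went from 3893 at day 0 to 604 at day 7 in OKS+DR and from 3480 to 1076 in OKS+FoxO6. That of 5 epithelial markers, Cdh1 and Epcam among them, went from 12.1 to 639 in OKS+DR and from 3.66 to 138 in OKS+FoxO6, and that of 5 pluripotency markers from 5.55 to 287 and from 0.71 to 49.2. In bulk RNA, fewer cells of a type and less RNA per cell cannot be told apart. Long transcripts also moved between libraries: genes with an effective length over 5000 nt differed between the arms (OKS+FoxO6 minus OKS+DR) by a median log2(TPM + 1) of 0.37 at day 0 and of -0.55 at day 7, against 0.09 and -0.14 over all genes, and by 0.00 to 0.08 on the days between. Itga1, Itga4, Itgb3, Itgb4, Itgb8, Lama1, Lama2, Lama3, Lama5, Lamb1 and Lamc1 are of that length.

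Of these 36 members, 27 had a mean of at least 1 TPM, 15 had at least 10 TPM and 20 had enough reads for the test. The members together made up 0.228% of all TPM at day 0 and 0.172% at day 7 in OKS+DR, and 0.234% and 0.131% in OKS+FoxO6. Itgb1 had the highest mean level (516 TPM), followed by Lamc1 (236 TPM), Lama4 (229.5 TPM), Itgb4 (160.4 TPM) and Itga6 (133 TPM). These means pool libraries that differ by arm and day, and the ranges of Lamc1, Lama4, Itgb4 and Itga6 over the libraries overlap.

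The shift between the arms over the 5 days was tested with edgeR on counts, with day as a factor. Itga1 was higher in OKS+FoxO6, which is 1 of 20 members tested, where 6.86% of all genes were called higher. Itga3, Itga6, Itgb4, Lama1 and Lamc1 were lower, 5 of the 20, where 7.09% of all genes were called lower. The median log2 fold change was -0.13 over the 20 members, 0.07 over the 11 integrin subunits tested, -0.54 over the 9 laminin chains tested and -0.02 over all 11028 genes tested. Day 7 differed from day 0, with both arms in the fit, in 5 members called higher (background 11.2% of all genes) and 7 called lower (background 9.97%). Any change over the days was called for 14 of the 20 members, against 19.5% of all genes. Without day 5 the arm shift called 3 members lower and the day 7 contrast 3 higher, and without day 0 any change was called for 8.

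**Figure D1:**
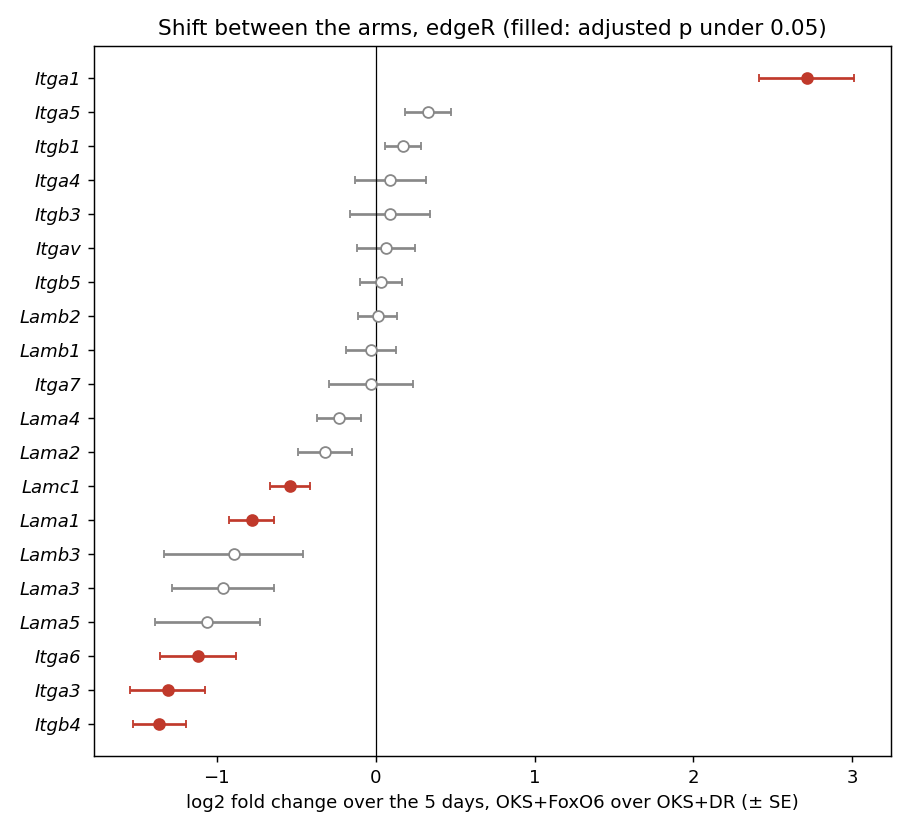
Log2 fold change between the arms over the 5 days (OKS+FoxO6 over OKS+DR, horizontal axis) for the 20 members tested with edgeR, where bars are ± SE and filled points have an adjusted p under 0.05. Itga1 stands alone on the right at 2.71, and the 5 filled points on the left run from -0.54 (Lamc1) to -1.36 (Itgb4).

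The start regions of Itga1, the member called higher, of Lama5, the member whose log2(TPM + 1) differed most between day 0 and day 7 in OKS+DR, and of Lama2, the member with the lowest fold change from day 0 to day 7, are shown because FoxO6 is a DNA-binding factor of the forkhead family. They are the RefSeq promoter windows of 300 bases around the start (GRCm38.p6), each read 5′ to 3′ on the minus strand of its gene, at chr13:115101915-115102214 for Itga1, chr2:180225810-180226109 for Lama5 and chr10:27616893-27617192 for Lama2. The start is that of RefSeq, and for Lama2 the GENCODE gene begins farther upstream, so that its window lies inside the gene span given for it here. Capitals mark the GC box GGGCGG or its reverse complement CCGCCC, a search added after the sequences had been seen.
Itga1: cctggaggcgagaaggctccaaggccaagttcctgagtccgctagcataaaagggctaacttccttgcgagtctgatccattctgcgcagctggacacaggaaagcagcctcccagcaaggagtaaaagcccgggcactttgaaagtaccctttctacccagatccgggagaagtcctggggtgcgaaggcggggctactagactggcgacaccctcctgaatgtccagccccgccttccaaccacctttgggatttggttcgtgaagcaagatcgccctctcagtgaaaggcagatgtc
Lama5: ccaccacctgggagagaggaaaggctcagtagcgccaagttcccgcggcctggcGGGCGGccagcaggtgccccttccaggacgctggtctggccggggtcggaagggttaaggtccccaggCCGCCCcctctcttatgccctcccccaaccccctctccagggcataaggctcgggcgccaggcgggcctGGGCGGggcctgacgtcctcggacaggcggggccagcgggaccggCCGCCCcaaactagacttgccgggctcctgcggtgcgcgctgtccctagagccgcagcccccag
Lama2: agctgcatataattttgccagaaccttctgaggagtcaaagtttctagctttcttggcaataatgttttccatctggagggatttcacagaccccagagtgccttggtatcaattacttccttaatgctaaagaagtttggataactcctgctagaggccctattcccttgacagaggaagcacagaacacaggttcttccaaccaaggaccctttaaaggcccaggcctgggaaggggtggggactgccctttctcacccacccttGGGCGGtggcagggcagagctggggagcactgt
Lama5 held 4 GC boxes in its window, Lama2 held 1 and Itga1 held 0. The forkhead letters GTAAACA, or TGTTTAC on the other strand, were found in 0 of the 26 windows of 23 members, against 3.65% of the 32851 windows of all genes. GC boxes were in 12 of the 26 windows (46.2%), against 35.7% of all windows. A match is a description of letters, and a window without one says only that these letters are not in it. Itga6, Itga7, Itgad, Itgae, Itgal, Itgb2, Itgb3, Itgb4, Lama1, Lama3, Lama4, Lamc1 and Lamc3 were not matched to a window.

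Among the laminin-binding integrin subunits, Itga3, Itga6 and Itgb4 were lower in OKS+FoxO6 on all 5 days. Itgb4 (ENSMUSG00000020758, chr11:115974709-116008412), the beta subunit of hemidesmosomes, which tie epithelial cells to the basement membrane, was at 35.9, 213, 355, 288 and 248 TPM at days 0, 1, 3, 5 and 7 in OKS+DR. In OKS+FoxO6 it was at 10.9, 65.8, 120.3, 131 and 135 TPM. It was lowest at day 0 in both arms, the OKS+DR library was the higher one on each day, and the ranges of the arms overlapped only through the low day 0 library of OKS+DR. The edgeR log2 fold change was -1.36 ± 0.17 (SE) between the arms (adjusted p = 0.000516) and 3.21 ± 0.28 from day 0 to day 7 (adjusted p = 2.68e-05). On counts per library total, OKS+FoxO6 held 0.284 times the OKS+DR level at day 0 (exact 95% interval 0.209 to 0.384) and 0.623 times at day 7 (0.567 to 0.684), and these intervals cover counting error only. A lincRNA on the opposite strand, B230344G16Rik, overlaps Itgb4 exons and had 31 reads in all 10 libraries.

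Itga6 (ENSMUSG00000027111, chr2:71745616-71858416), the alpha partner of Itgb4 and also of Itgb1, was at 212, 235, 141, 115 and 160.3 TPM over the same days in OKS+DR. It was at 187, 125, 59.1, 52.6 and 39.7 TPM in OKS+FoxO6. The arms were close at day 0 and farthest apart at day 7, when OKS+FoxO6 was the lowest of the 10 libraries. The shift was -1.12 ± 0.24 (adjusted p = 0.0112, edgeR), with an adjusted p of 0.0504 once day 5 was left out. From day 0 to day 7 Itga6 fell, at -1.53 ± 0.38 (adjusted p = 0.0144) over both arms. In counts per library total the day 7 level was 0.729 of day 0 in OKS+DR (95% interval 0.636 to 0.837) and 0.152 in OKS+FoxO6 (0.117 to 0.194). The last value rests on 70.67 expected counts, at an effective length of 1988 nt against 2884 nt in OKS+DR on that day.

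Itga3 (ENSMUSG00000001507, chr11:95044474-95076801), another alpha subunit for epithelial laminins, was at 17.5, 11.0, 16.9, 25.3 and 30.0 TPM in OKS+DR and at 8.42, 9.27, 6.28, 13.2 and 7.72 TPM in OKS+FoxO6. The highest libraries were days 5 and 7 of OKS+DR, and the arms overlapped through the day 1 library of OKS+DR. The shift was -1.31 ± 0.24 (adjusted p = 0.00471, edgeR), and the change from day 0 to day 7 was not past the threshold (0.75 ± 0.36, adjusted p = 0.177). Itga7, the laminin receptor of muscle, lay between 4.06 and 17.8 TPM with no call (shift -0.03 ± 0.27, adjusted p = 0.961). The level of Itgb4 relative to Itga6 in a library went from 0.17 at day 0 to 1.55 at day 7 in OKS+DR, with its highest ratio of 2.53 at day 3, and from 0.0583 to 3.41 in OKS+FoxO6.

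**Figure D2:**
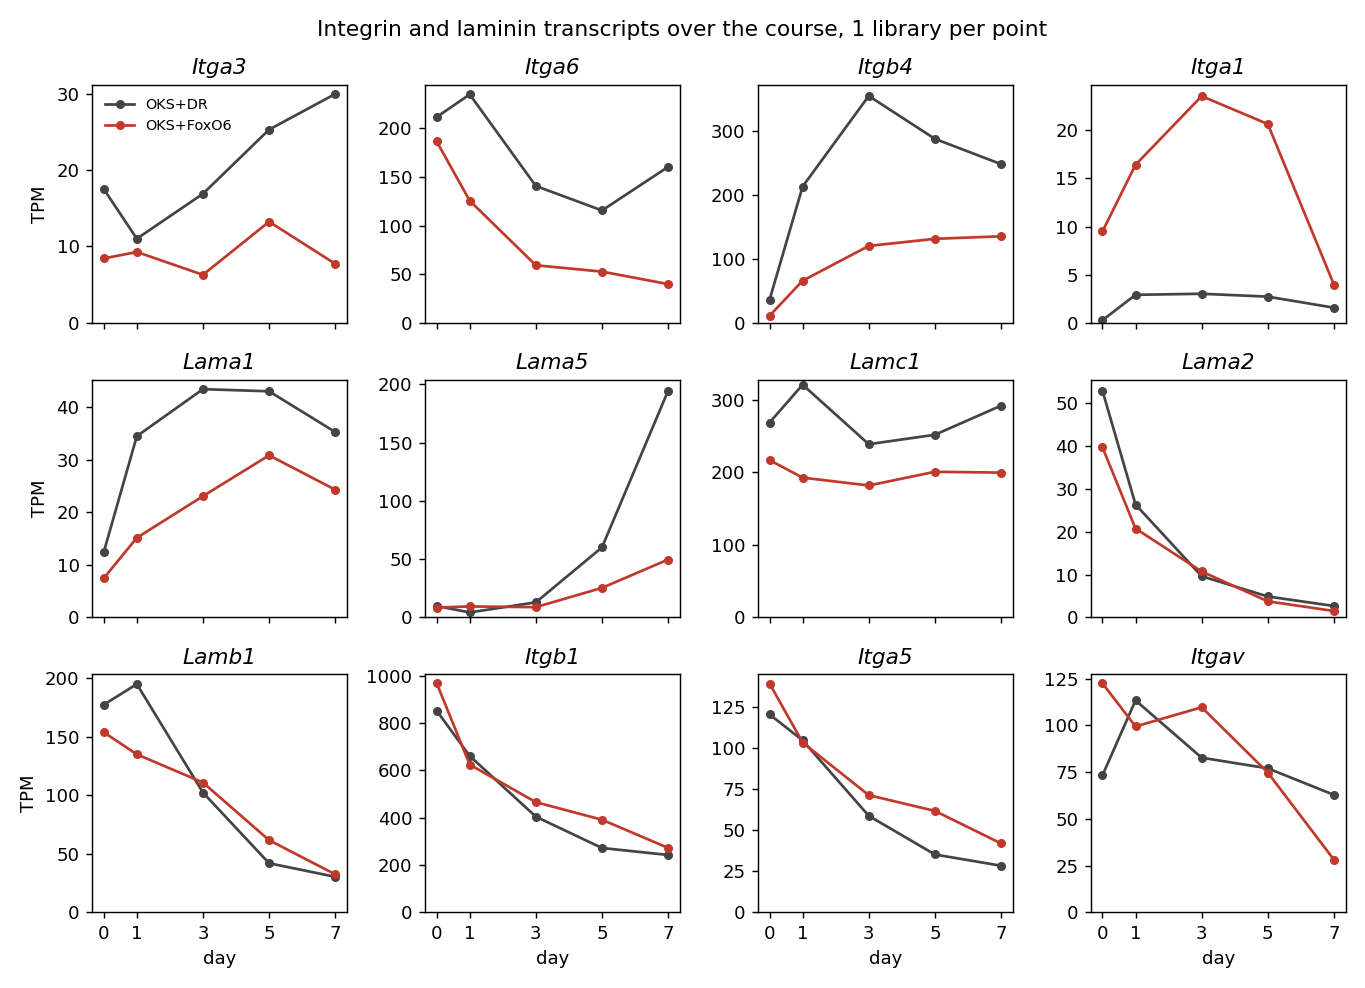
TPM (vertical axis, linear from 0, scaled per gene) against day (horizontal axis) for 12 members, 1 library per point, OKS+DR in grey and OKS+FoxO6 in red. Itga1 lies higher in OKS+FoxO6, Itgb4 and Lamc1 lie higher in OKS+DR, Lama5 is lower in OKS+FoxO6 from day 3, and Lama2, Lamb1, Itgb1, Itga5 and Itgav end lower at day 7 than at day 0 in both arms.

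Itga1 (ENSMUSG00000042284, chr13:114953096-115101964), the collagen-binding alpha subunit whose start region is printed above, was at 0.26, 2.90, 3.01, 2.71 and 1.56 TPM in OKS+DR. In OKS+FoxO6 it was at 9.49, 16.4, 23.6, 20.7 and 3.96 TPM. Each OKS+FoxO6 library lay above every OKS+DR library, and in OKS+FoxO6 the level was highest at day 3 and lowest at day 7. OKS+DR had 1 to 13 reads per library and OKS+FoxO6 21 to 136. The shift was 2.71 ± 0.30 on the log2 scale (adjusted p = 0.000297, edgeR), and it was past the threshold under each of the 10 alternatives run, from 2.53 to 2.94. The ratio of counts per library total was 33.7 at day 0 (95% interval 5.82 to 1350, from 62 reads against 1), 7.72 at day 3 (4.37 to 14.9) and 2.79 at day 7 (1.23 to 6.93). Any change over the days was called for it (adjusted p = 0.0456). Another gene model of the reference annotation, Gm49395, shares exons with Itga1 on the same strand and is not analysed here.

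The other collagen receptors were scarce. Itga11, a collagen receptor of fibroblasts, had 11 reads at day 0 in OKS+DR and 55 in OKS+FoxO6, and 1 read in all 4 later libraries of each arm. Relative to day 0 that is a ratio of 0.0177 in OKS+DR (95% interval 0.000411 to 0.122) and of 0.00558 in OKS+FoxO6 (0.000139 to 0.0324). It had too few reads in most libraries for the test. Itga2 had 0 to 6 reads per library, and Itga10 lay between 0.36 and 2.83 TPM.

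**Figure D3:**
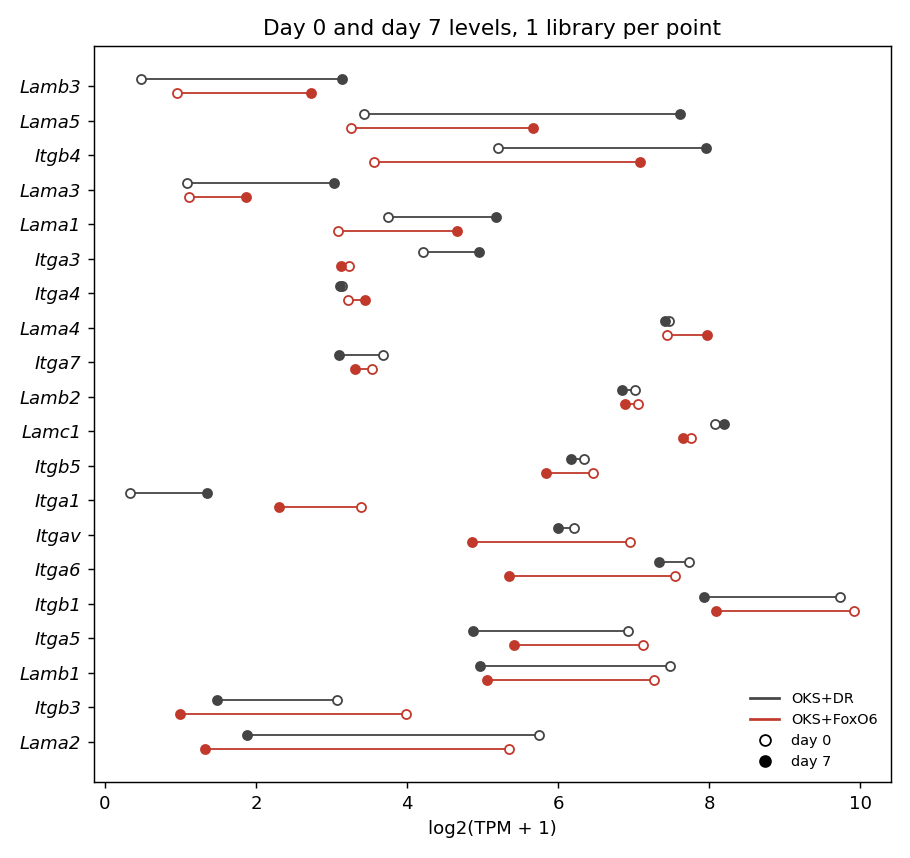
Level at day 0 (open points) and day 7 (filled points) in log2(TPM + 1) on the horizontal axis for the 20 members tested, OKS+DR in grey and OKS+FoxO6 in red, 1 library per point and ordered by the fitted change from day 0 to day 7. Lamb3, Lama5 and Itgb4 at the top moved to the right in both arms, Lama2, Itgb3 and Lamb1 at the bottom moved to the left, and Itga6 and Itgav moved farther to the left in OKS+FoxO6.

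Of the alpha subunits for fibronectin and other RGD ligands (proteins bound through an Arg-Gly-Asp motif), Itga5 and Itgav were lower at day 7 than at day 0. Itga5 (ENSMUSG00000000555, chr15:103344286-103366763), the classical fibronectin receptor alpha subunit, was at 120.4, 105, 58.7, 35.1 and 28.3 TPM in OKS+DR and at 139, 103, 71.2, 61.7 and 41.9 TPM in OKS+FoxO6. It was lower at each later day in both arms, and the ranges of the arms over the days overlapped. The ratio of counts per library total between the arms was 1.07, 0.992 and 1.2 at days 0, 1 and 3. It was 1.71 at day 5 (exact interval 1.36 to 2.17) and 1.63 at day 7 (1.28 to 2.08), with OKS+FoxO6 the higher. These intervals cover counting error only. Day 7 was lower than day 0 by -1.87 ± 0.23 (adjusted p = 0.000225, edgeR), and the shift between the arms was 0.33 ± 0.14 (adjusted p = 0.163). Itgav (ENSMUSG00000027087, chr2:83724397-83806916), the alpha subunit of vitronectin receptors and of receptors that activate TGF-beta, was at 73.3, 113, 82.8, 77.1 and 62.9 TPM in OKS+DR and at 123, 99.5, 109.8, 74.8 and 28.1 TPM in OKS+FoxO6. Its day 7 library in OKS+FoxO6 was the lowest of all 10, and the others overlapped. Over both arms it fell by 1.10 ± 0.29 on the log2 scale from day 0 to day 7 (adjusted p = 0.0207, edgeR). Itga8 (0.36 to 6.82 TPM) and Itga2b (0.00 to 11.1 TPM), the latter the alpha subunit of the platelet fibrinogen receptor, were not tested, and all 4 megakaryocyte and platelet markers had at most 3 reads in every library.

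Itgb1 (ENSMUSG00000025809, chr8:128685654-128733200), the beta subunit shared by most alpha subunits named here, was at 853, 661, 404, 272 and 242 TPM in OKS+DR. In OKS+FoxO6 it was at 969.9, 625, 466, 391 and 272 TPM. It was the most abundant member in every library except days 5 and 7 of OKS+DR, where Itgb4 and Lamc1 came first, and its level was lower at each later day in both arms. It fell by 1.79 ± 0.18 from day 0 to day 7 (adjusted p = 6.96e-05, edgeR), with a shift between the arms of 0.17 ± 0.11 (adjusted p = 0.363).

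Of the beta subunits that pair with Itgav, Itgb3 (ENSMUSG00000020689, chr11:104608000-104670476), of the vitronectin receptor, was at 7.45, 13.6, 5.99, 3.26 and 1.80 TPM in OKS+DR and at 14.9, 14.9, 5.02, 2.41 and 0.99 TPM in OKS+FoxO6. It was lowest at day 7 in both arms and fell by 2.94 ± 0.43 (adjusted p = 0.000678, edgeR). Itgb5 was at 80.3, 53.7, 51.0, 43.8 and 71.0 TPM in OKS+DR and at 87.5, 61.0, 46.1, 60.9 and 56.4 TPM in OKS+FoxO6. It was highest at day 0 in both arms and was called for any change over the days (adjusted p = 0.0347), while its shift was 0.03 ± 0.13 (adjusted p = 0.903). Itgb8, a partner of Itgav in TGF-beta activation, had 13 reads at day 7 in OKS+DR and 0 in OKS+FoxO6, at least 3.62-fold lower with the floor of 3 reads in that library. At day 0 the order was the opposite, with 0 reads in OKS+DR and 10 in OKS+FoxO6. Itgb6, a beta subunit of epithelia, had at most 3 reads in every library.

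Itga4 (ENSMUSG00000027009, chr2:79255426-79333123), whose product binds fibronectin and Vcam1, had a passing peak. It was at 7.82, 44.6, 29.4, 10.7 and 7.62 TPM in OKS+DR and at 8.31, 30.3, 23.3, 23.2 and 9.92 TPM in OKS+FoxO6. The days between were above both ends in each arm, and at day 5 OKS+FoxO6 was still near its day 3 level while OKS+DR was lower. Any change over the days was called (adjusted p = 0.00416, edgeR), and the day 7 contrast was not (0.16 ± 0.37, adjusted p = 0.819). At day 5 the ratio of counts per library total was 2.21 (95% interval 1.68 to 2.94). Cerkl overlaps Itga4 exons on the opposite strand and had 25.4 expected counts in all 10 libraries, and Itga4 counts were fractional in 5 of them. The related Itga9 had 7 reads at day 0 and 0 at day 7 in OKS+DR, and 16 and 1 in OKS+FoxO6.

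The integrins of leukocytes were near the limit of detection. Itgal, Itgax and Itgae had at most 3 reads in every library, and Itgad had 0 reads in all 10. Itgb7 was the highest of them by mean, at 4.15, 2.02, 3.15, 5.59 and 1.57 TPM in OKS+DR and at 8.16, 2.79, 2.75, 1.89 and 3.42 TPM in OKS+FoxO6, which correspond to 4 to 13 reads. Itgb2, the beta subunit that pairs with Itgal, Itgam, Itgax and Itgad, had 0 to 4 reads per library. Itgam reached 4.36 TPM at day 7 in OKS+FoxO6, from 4 reads. Of 6 macrophage and leukocyte markers, Ptprc, Adgre1, Csf1r and Cd14 had at most 3 reads in every library. The others, Cd68 and Laptm5, had more, with up to 115 reads for a gene in a library. The summed TPM of the list lay between 15.6 and 90.3 in OKS+DR and between 29.2 and 52.5 in OKS+FoxO6.

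Among the laminin alpha chains, Lama4 (ENSMUSG00000019846, chr10:38965515-39110188), the chain of mesenchymal and vascular cells, was the most abundant in every library except day 7 of OKS+DR. It was at 177, 306, 335, 218 and 169 TPM in OKS+DR and at 173, 209.8, 206, 251 and 250.2 TPM in OKS+FoxO6. The arms overlapped, and neither the shift (-0.23 ± 0.14, adjusted p = 0.313, edgeR) nor the change from day 0 to day 7 (0.02 ± 0.22, adjusted p = 0.972) was past the threshold. At day 7 the TPM of the arms rests on effective lengths of 4858 nt in OKS+DR and 3089 nt in OKS+FoxO6, and the ratio of counts per library total was 1.04 (95% interval 0.934 to 1.15). The sum of 5 endothelial markers, of which Emcn had at most 3 reads in every library, lay between 18.7 and 53.0 TPM in OKS+DR and between 30.4 and 104.2 TPM in OKS+FoxO6, and its part in the Lama4 level was not tested.

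Lama5 (ENSMUSG00000015647, chr2:180176373-180225859), the broadly used alpha chain of epithelial basement membranes and of the embryo, was at 9.83, 4.33, 13.0, 60.2 and 194.6 TPM in OKS+DR. In OKS+FoxO6 it was at 8.56, 9.45, 8.86, 25.4 and 49.7 TPM. All libraries up to day 3 were at or below 13.0 TPM, and days 5 and 7 stood above them in both arms, with OKS+DR the higher. Day 7 was above day 0 by 3.35 ± 0.52 (adjusted p = 0.000876, edgeR). The shift over the 5 days was -1.06 ± 0.33 and missed the threshold (adjusted p = 0.0569). It passed without day 0 (-1.35, adjusted p = 0.0151) and without day 1 (-1.27, adjusted p = 0.0389). It also passed without the filter on low counts (adjusted p = 2.415e-07) and with the length trend removed (adjusted p = 0.0259). The shift missed the threshold with DESeq2 (-0.85, adjusted p = 0.365), RLE factors (-1.07, adjusted p = 0.0572) and an effective length offset (-0.81, adjusted p = 0.152). It was also missed without day 3 (-1.01, adjusted p = 0.1665), day 5 (-0.81, adjusted p = 0.276) or day 7 (-0.75, adjusted p = 0.1385). From day 0 to day 7 the ratio of counts per library total was 26.2 in OKS+DR (95% interval 17.9 to 40.0) and 4.66 in OKS+FoxO6 (3.53 to 6.22). At day 7 OKS+FoxO6 held 0.239 times the OKS+DR level (0.206 to 0.277).

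Lama1 (ENSMUSG00000032796, chr17:67697259-67822647), the alpha chain of early embryonic basement membranes, was at 12.4, 34.5, 43.5, 43.1 and 35.3 TPM in OKS+DR and at 7.48, 15.2, 23.1, 30.9 and 24.3 TPM in OKS+FoxO6. It was lowest at day 0 in both arms, and OKS+DR was above OKS+FoxO6 on every day while the ranges overlapped. It was lower in OKS+FoxO6 (-0.78 ± 0.14, adjusted p = 0.00479, edgeR) and rose from day 0 to day 7 (1.64 ± 0.23, adjusted p = 0.000529). Lama2 (ENSMUSG00000019899, chr10:26980036-27619758), the alpha chain of muscle and mesenchyme, was at 53.0, 26.4, 9.63, 4.90 and 2.68 TPM in OKS+DR and at 39.7, 20.8, 10.7, 3.77 and 1.51 TPM in OKS+FoxO6. In TPM each library was lower than the one before it in both arms, but in OKS+DR days 5 and 7 rest on 11 and 17 reads at effective lengths of 3278 and 6519 nt. The fall from day 0 to day 7 was -4.31 ± 0.29 (adjusted p = 6.27e-06), the lowest fold change among the 20 members, and the arms did not differ past the threshold (-0.32 ± 0.17, adjusted p = 0.262).

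Lama3, the alpha chain of the epidermal anchoring laminin, was at 1.13, 1.87, 4.94, 9.01 and 7.18 TPM in OKS+DR and at 1.16, 2.25, 1.57, 5.35 and 2.64 TPM in OKS+FoxO6. It was highest at day 5 in both arms. It rose from day 0 to day 7 (1.87 ± 0.54, adjusted p = 0.0313, edgeR), a call that was lost with DESeq2 (adjusted p = 0.116) and without day 5, and its shift between the arms missed the threshold (-0.96 ± 0.32, adjusted p = 0.0725).

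The beta chains changed places. Lamb1 (ENSMUSG00000002900, chr12:31265234-31329644), the beta chain of most embryonic laminins, was at 177, 195, 102, 41.8 and 30.3 TPM in OKS+DR and at 154, 135, 111, 61.6 and 32.4 TPM in OKS+FoxO6. It fell by 2.37 ± 0.26 from day 0 to day 7 (adjusted p = 9.85e-05, edgeR), with a shift between the arms of -0.03 ± 0.16 (adjusted p = 0.931). Lamb2 (ENSMUSG00000052911), the beta chain of synaptic and kidney basement membranes, was at 129, 136, 121, 123 and 114 TPM in OKS+DR and at 133, 100.3, 98.4, 143 and 118 TPM in OKS+FoxO6. The libraries of both arms lay within one narrow band, and neither the shift (0.01 ± 0.12, adjusted p = 0.962) nor the day 7 contrast (-0.17 ± 0.19, adjusted p = 0.583) was past the threshold. Lamb3 (ENSMUSG00000026639), the beta chain that joins Lama3 in the epidermal laminin, was at 0.39, 1.34, 5.89, 6.94 and 7.82 TPM in OKS+DR and at 0.94, 0.31, 2.20, 3.25 and 5.65 TPM in OKS+FoxO6. It rose by 4.04 ± 0.87 (adjusted p = 0.00667) from 1 read at day 0 in each arm to 19 and 20 reads at day 7, so its fold is loosely set (12.3 in OKS+DR, 95% interval 1.95 to 511, and 28.5 in OKS+FoxO6, 4.56 to 1180). At day 1 it had 4 reads in OKS+DR and 1 in OKS+FoxO6, so it passed the filter on low counts through the later days, where it is high. Without day 5 it did not pass the filter, and the call could not be checked.

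Of the gamma chains, Lamc1 (ENSMUSG00000026478, chr1:153218922-153332786), present in most laminin trimers, was at 269, 321, 239, 252 and 292 TPM in OKS+DR and at 217, 193, 182, 201 and 199.7 TPM in OKS+FoxO6. Each OKS+DR library lay above every OKS+FoxO6 library, and the day 7 contrast was not past the threshold (-0.19 ± 0.20, adjusted p = 0.55). The shift was -0.54 ± 0.12 (adjusted p = 0.0159, edgeR), the smallest of those called, and it was lost without day 1 (adjusted p = 0.0761) and without day 5 (adjusted p = 0.0574). Lamc3 had 1 read in all 10 libraries.

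The sum of the 5 epithelial markers rose over the days and was lower in OKS+FoxO6 at day 0 and at day 7. Itgb4 and Lama1 were called in both of these directions, whereas Itga6 was lower in OKS+FoxO6 and fell over the days. Of 4 basal keratinocyte markers (Krt5, Krt14, Trp63 and Col17a1), the summed TPM lay between 9.49 and 16.7 in OKS+DR and between 2.20 and 17.6 in OKS+FoxO6. The part of the epithelial and fibroblast shares of the culture in the results on laminins and integrins was not tested.

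TPM is a level per length, so chains of one type can be set side by side within a library. Lama5 made up 3.88% of the summed TPM of the laminin alpha chains at day 0 in OKS+DR and 47.6% at day 7, and 3.72% and 15.1% in OKS+FoxO6. Lama4 went from 69.9% to 41.4% in OKS+DR and was at 75.3% and 76.2% in OKS+FoxO6, and Lama2 went from 20.9% to 0.66% and from 17.3% to 0.46%. The control course therefore ended with Lama5 as its first alpha chain by TPM and Lama4 close behind, and the FoxO6 course with Lama4. With the mean effective length of each gene in place of that of the library, Lama5 and Lama4 were at 44.4% and 44.3% at day 7 in OKS+DR. Of the laminin beta chains, Lamb1 made up 57.8% at day 0 and 19.9% at day 7 in OKS+DR and 53.5% and 20.8% in OKS+FoxO6, so that Lamb2 led at day 7 in both arms. Of the integrin beta subunits, Itgb1 went from 87.0% to 42.7% in OKS+DR and from 88.6% to 57.9% in OKS+FoxO6, and Itgb4 from 3.66% to 43.8% and from 0.99% to 28.8%. Itga6 made up 45.2% of the integrin alpha TPM at day 0 and 52.8% at day 7 in OKS+DR, and 36.2% and 25.7% in OKS+FoxO6. These shares come from single libraries and have no test.

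**Figure D4:**
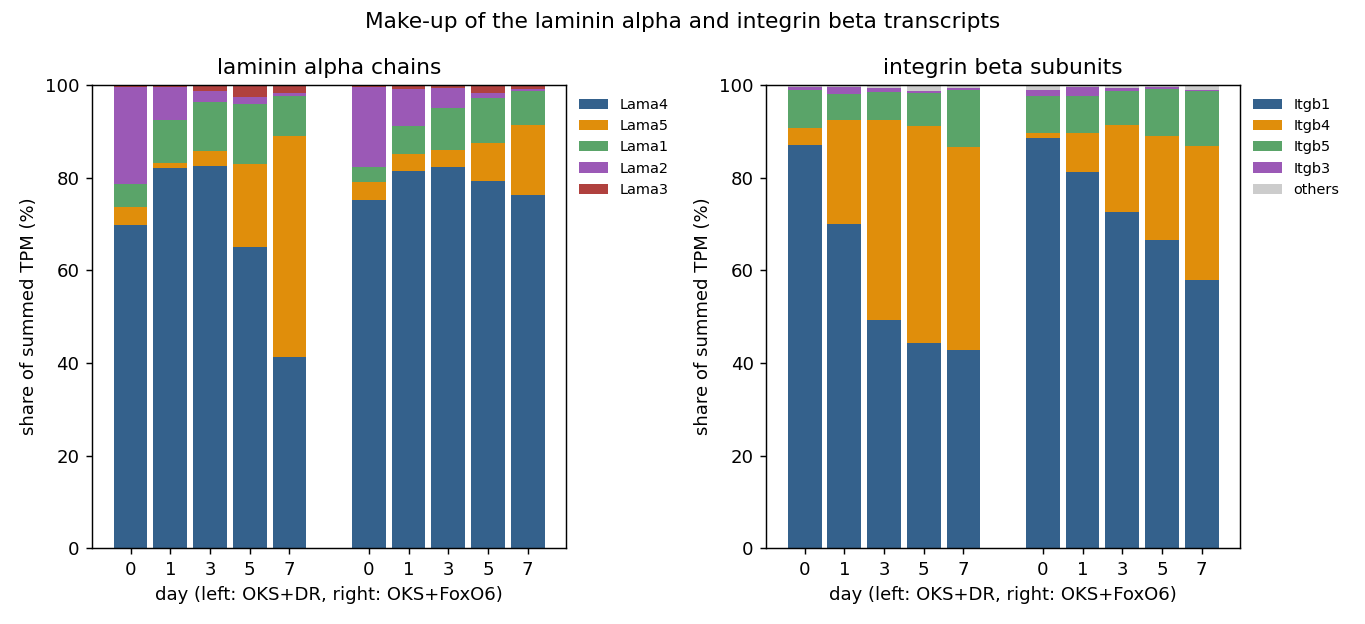
Share of the summed TPM (vertical axis, percent) of the 5 laminin alpha chains on the left and of the integrin beta subunits on the right, 1 bar per library, with the 5 days of OKS+DR first and those of OKS+FoxO6 after them. Lama5 reaches 47.6% at day 7 in OKS+DR and 15.1% in OKS+FoxO6, and Itgb4 43.8% and 28.8%.

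Whether the difference between the arms grew or shrank with the day was tested as a slope in edgeR. Itgb4 was called with a positive slope, 1 of 20 members where 1.20% of all genes were called, and Itga6 and Lama5 with negative slopes, 2 of 20 where 0.762% were called. For Lama5 the difference changed by -0.37 ± 0.05 log2 per day (adjusted p = 0.00385), from similar levels at day 0 to a lower level in OKS+FoxO6 at day 7. For Itga6 it changed by -0.25 ± 0.05 (adjusted p = 0.0305), and for Itgb4, where the gap narrowed, by 0.16 ± 0.04 (adjusted p = 0.0455). With an effective length offset these calls were lost while the slopes kept their direction, at -0.32 for Lama5 (adjusted p = 0.0697), -0.18 for Itga6 (adjusted p = 0.0961) and 0.15 for Itgb4 (adjusted p = 0.0921). Without day 7 the adjusted p was 0.404 for Itga6 and 0.412 for Itgb4, and 0.0232 for Lama5. The Itga6 call was also lost without day 0 (adjusted p = 0.1999) and without day 3 (adjusted p = 0.0514), and the Itgb4 call was lost without any one of the days. With the length trend of each library removed the 3 calls held, at -0.28 per day for Lama5 (adjusted p = 0.0215), -0.24 for Itga6 (adjusted p = 0.0213) and 0.23 for Itgb4 (adjusted p = 0.00717). Itga4, Itga5, Lama1 and Lamb1 were then called with positive slopes as well.

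On single days, members with a mean of at least 1 TPM were counted where log2(TPM + 1) differed by more than 1, a 2-fold difference on that scale. At day 0, 3 of 27 members were higher in OKS+FoxO6 (background 10.6% of all genes) and 3 lower (background 6.41%). At day 1 it was 2 higher (8.10%) and 2 lower (9.43%), at day 3 it was 1 higher (8.21%) and 7 lower (11.8%), at day 5 it was 5 higher (10.3%) and 4 lower (11.4%), and at day 7 it was 2 higher (8.30%) and 5 lower (16.5%). At day 3 the lower members were Itga3, Itga6, Itga8, Itga9, Itgb4, Lama3 and Lamb3, of which Itga8 had 4 reads in each arm and Itga9 had 2 in OKS+FoxO6 and 3 in OKS+DR, so that their TPM differences rest on effective lengths. At day 7 the higher members were Itga2b and Itgam, each with 4 reads in OKS+FoxO6 and 2 in OKS+DR. At day 5 the higher Itga2b had 2 and 0. At day 0 the lower Itga10 had 2 reads in OKS+FoxO6 and 1 in OKS+DR, at effective lengths of 4969 and 841 nt. Itga2b, also lower at day 0, had 9 and 8 reads at 2180 and 1114 nt. With a mean of at least 5 TPM required, 3 members were lower at day 3 and 4 at day 7. Itga2b, Itgam and Itga10 fall below that mean (3.53, 1.47 and 1.38 TPM). Itgb4 was among the lower members up to day 5 and Itga6 from day 3, and Itga1 was among the higher members up to day 5. From day 0 to day 7, 6 of 27 members went up 2-fold in OKS+DR (background 21.0%) and 9 went down (background 11.4%), and in OKS+FoxO6 5 went up (14.4%) and 12 went down (17.0%). Itgb4, Lama1, Lama5 and Lamb3 went up in both arms. Lama3 went up past 2-fold in OKS+DR, with 0.75 on the log2(TPM + 1) scale in OKS+FoxO6. These counts compare single libraries and the difference between the arms in them was not tested.

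Genes that work with laminins and integrins were counted on lists of their function. Of 12 partners of laminin in the basement membrane, 10 were tested. Ntn4, a netrin that binds laminin chains (2.35 ± 0.28, adjusted p = 0.000435, edgeR), Nid1, the nidogen that links laminin to collagen IV (1.93 ± 0.24, adjusted p = 0.000532), Col4a2 and Col4a1 were higher in OKS+FoxO6, 4 of the 10 where 6.86% of all genes were called higher. Agrn (-0.95 ± 0.26, adjusted p = 0.0357), Hspg2, the proteoglycan perlecan, and Nid2 were lower, 3 of the 10 where 7.09% of all genes were called lower. The nidogens thus moved apart: Nid1 was at 239.6 TPM at day 7 in OKS+FoxO6 and at 66.5 TPM in OKS+DR, whereas Nid2 was at 26.8 TPM at day 7 in OKS+FoxO6 and at 57.9 TPM in OKS+DR. The median shift of the 10 genes was 0.17. From day 0 to day 7 Agrn rose (background 11.2% of all genes) and Nid1, Nid2 and Hspg2 fell (background 9.97%).

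Of 15 other integrin ligands, 14 were tested, 4 were called higher in OKS+FoxO6 (background 6.86% of all genes) and 0 lower (background 7.09%). They were Thbs1, thrombospondin (1.45 ± 0.28, adjusted p = 0.00686, edgeR), Ccn2, listed as Ctgf (1.40 ± 0.24, adjusted p = 0.00345), Spp1, osteopontin (0.90 ± 0.22, adjusted p = 0.0202) and Postn, periostin (0.69 ± 0.17, adjusted p = 0.0215). The median shift was 0.27. From day 0 to day 7, 12 of the 14 fell (background 9.97% of all genes), with a median change of -2.01, and Fn1, fibronectin, the ligand of Itga5, fell by 1.59 ± 0.18 (adjusted p = 0.000148). Of 30 activators and adaptors of integrins, 26 were tested. Dst, a plakin, was higher in OKS+FoxO6 (0.66 ± 0.13, adjusted p = 0.00758). Plec, the plectin that links Itgb4 to keratin (-0.66 ± 0.11, adjusted p = 0.00401), Cd9 and Flna were lower. These are 1 and 3 of the 26 against 6.86% and 7.09% of all genes, with a median shift of -0.05 over the 26. From day 0 to day 7 Dst rose (background 11.2%) and 10 of the 26 fell (background 9.97%), among them Zyx, zyxin (-3.55 ± 0.40, adjusted p = 0.000125), and Actn1, actinin (-2.55 ± 0.23, adjusted p = 3.17e-05).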

How the data were processed

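RNA-seq of MEFs was analysed in 10 libraries, grouped by arm and day from the sample titles. The members, gene lists and tests were chosen with earlier results of these data known, and 1 of the 37 members is not reported here. The sample labels name a VAHTS library kit and the study's methods a TruSeq kit. Per the labels and methods, the authors aligned reads with Bowtie2 and RSEM to GENCODE M13 (mm10), and the versions are not given in the sources used here. The deposited expected counts are RSEM estimates without normalization, and the deposited TPM values, with effective lengths, come from the same files (48476 shared genes with identical counts, 2124 genes in the files per library alone). Isoform estimates from few reads move the effective length and with it the TPM, and counting was not stated to use strand. Coordinates were taken from GENCODE M21 on GRCm38.

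The expected counts were rounded and fitted with edgeR 4.0.16 (R 4.3.3): TMM, filterByExpr, day as a factor plus arm, 4 residual degrees of freedom, quasi-likelihood tests and Benjamini-Hochberg adjustment over 11028 genes, with a threshold of 0.05. SE is the absolute log2 fold change over the square root of F. The slope fit added the product of arm and day and so has fewer residual degrees of freedom. The common dispersion was 0.034. Differences per day used log2(TPM + 1), a pseudocount of 1 and a mean TPM of at least 1, a scale that understates changes of low genes. Ratios of counts have exact (Clopper-Pearson) 95% intervals, and a count of 0 was set to a floor of 3 reads per library. By rule, every library's TPM was given for members called in the shift, day 7 or slope test and for the highest member of each role, other members were given by ranges and counts, and each list named its 4 called genes with the largest absolute shift. Col4a1, Col4a2, Nid2, Fn1, Zyx and Actn1 fall outside this rule and were chosen after their values were seen. The fits were also run on simulated data, and the outcome is not given here. Other steps used Python 3.11.15 (scipy 1.17.1, numpy 2.4.6, statsmodels 0.14.6, pandas 2.3.3) and figures matplotlib 3.10.9. Alternatives were DESeq2 1.42.0, RLE factors, no filter, an effective length offset, each day left out, a pseudocount of 0.1, CPM with a prior count of 2, a mean TPM of at least 5 or no minimum, and mean effective lengths for shares. Removal of the length trend of each library (lowess) was chosen after seeing the data.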

Additional observations from a re-analysis of the deposited data

Results flagged for a closer look

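For 3 members the difference between OKS+FoxO6 and OKS+DR changed with the day, by the slope term of the edgeR fit. The slope was -0.37 log2 per day for Lama5, where OKS+FoxO6 was the lower arm from day 3, and -0.25 for Itga6, whose gap was widest at day 7. It was 0.16 for Itgb4, whose gap narrowed. The call for Itga6 was lost without day 0, day 3 or day 7 and that for Itgb4 without any one of the 5 days, and the 3 calls were lost with an effective length offset, at slopes of -0.32 for Lama5, -0.18 for Itga6 and 0.15 for Itgb4, and held with the length trend of each library removed.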

How the results depend on the processing

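Among the alternatives run, no direction of a called member reversed, while the arm shift of members without a call, such as Itga4, Itga7, Itgav, Itgb3 and Lamb1, changed sign under some. The arm shift of Itga1, Itga3, Itgb4 and Lama1 stayed past the threshold under all 10 alternatives, that of Itga6 under 9 and that of Lamc1 under 8, that of Lama5, not called, passed it under 4 and that of Lama3 under 2 (without day 0 and without the filter on low counts), and for day 7 against day 0 the call for Lama3 was lost with DESeq2 (adjusted p = 0.116) and without day 5 (adjusted p = 0.0587), where Lamb3 did not pass the filter on low counts and was not tested. The arm shift is fitted with day as a factor and so compares the arms within days, and the labels carry no replicate numbers for another block. The arm shift and day tests rest on 4 residual degrees of freedom with all libraries. The slope test, and every fit with a day left out, has fewer. Members with few reads per library are loosely set. Leaving out day 0 or day 7 leaves no day 7 against day 0 contrast. The cause of the changes below was not tested.

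Without the filter on low counts, edgeR called 1148 genes higher in the arm shift, 3804 for any change over the days, and 329 higher and 319 lower for the slope, with 2 members higher for the slope. With the effective length offset the slope called 0 members and 62 genes higher and 0 members and 46 genes lower. With the length trend removed the slope called 5 members higher (Itga4, Itga5, Itgb4, Lama1 and Lamb1). DESeq2 called 84 genes higher for the slope. Leaving out each day in turn gave 362 to 792 genes higher and 293 to 816 genes and 3 to 7 members lower in the arm shift (3 without day 5), 3 to 5 members higher at day 7 against day 0 (3 without day 5), 1056 to 2474 genes and 8 to 13 members for any change (8 without day 0), and for the slope 42 to 107 genes and 0 members higher and 28 to 119 genes and 1 to 2 members lower.

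For 2-fold differences, a pseudocount of 0.1 gave 5 members lower at day 0, 4 higher at day 1, 2 higher at day 3 and 6 higher at day 7. Log2 CPM gave 1 lower at day 0, and 1 higher and 4 lower at day 1. A mean TPM of at least 5 gave 1 higher and 1 lower at day 0, 1 higher at day 1, 3 lower at day 3, 3 higher at day 5 and 0 higher at day 7, and from day 0 to day 7 it gave 5 lower in OKS+DR and 3 higher in OKS+FoxO6. No minimum gave 5 higher at day 0. With the length trend removed, 5 were lower at day 0, and 5 were higher and 3 lower at day 7. With mean effective lengths, the shares at day 7 in OKS+DR were 44.3% for Lama4 and 44.4% for Lama5. In OKS+FoxO6 at day 7 they were 10.2% for Lama1, 71.5% for Lama4, 19.1% for Itga6 and 21.9% for Itgav.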
